A study of Drosophila melanogaster with 4 samples.

Results

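The 6 conventional actin genes of *Drosophila melanogaster* (*Act5C*, *Act42A*, *Act57B*, *Act79B*, *Act87E* and *Act88F*) were examined together with *chic*, which encodes profilin, and *tsr* (twinstar), which encodes cofilin. These 8 genes were chosen by name, and all 8 were found among the 13608 gene identifiers of the count table. RNA of untreated wild-type adult heads was sequenced from the poly(A) tail (3′-seq), with 4 replicates of this 1 condition, each made from 10 ng of RNA prepared as the input of a UV cross-linking protocol. Wild type stands for *w1118* in the study's methods. The study used both sexes, and the sex and age behind each library are not given in the sources used here. Independent lines are mentioned in the series text but in none of the sample labels. How replicates relate to lines or cultures is not given in the sources used here, so the spread between replicates may hold differences between lines as well as technical ones. Heads hold brain, eyes, fat body, cuticle and small muscles together. In such a bulk sample, fewer cells of a type and less RNA per cell cannot be told apart.

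Actin polymerizes from globular monomers into filaments that shape cells, carry myosin in the nonmuscle cortex and form the thin filaments of muscle. Flies carry a separate gene for each main use. *Act5C* and *Act42A* encode the cytoplasmic actins, found in nearly all cells. *Act57B* and *Act87E* serve larval body-wall muscle and many adult muscles, *Act79B* the tubular muscles of the adult thorax and legs, and *Act88F* the indirect flight muscles. The encoded proteins are nearly identical. Profilin binds monomers and delivers them to growing filament ends, and cofilin severs and disassembles old filaments.

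In dm6, *Act5C* lies on chromosome X from 5900861 to 5905399 on the plus strand and has 5 annotated transcripts with 5 different 3′ ends. *Act42A* lies on 2R from 6013910 to 6015689 (minus strand), and *Act57B* on 2R from 20944021 to 20946431 (plus strand). *Act79B* lies on 3L from 21985210 to 21987190, *Act87E* on 3R from 13425983 to 13428375 and *Act88F* on 3R from 15439969 to 15442177, all on the plus strand. *chic* lies on 2L from 5972115 to 5981018 and *tsr* on 2R from 24044453 to 24046805, both on the minus strand. A small nucleolar RNA gene lies within the 3′UTR of *Act57B*, 366 bp from its end. In 3′-seq (QuantSeq REV kit, Lexogen), reads start at the end of the transcript and therefore fall mostly in the 3′UTR, which is annotated as at least 345 nt long for every actin gene. How alike the 3′UTRs of the 6 genes are was not analysed here, and the treatment of reads that map to several places is not given in the sources used here, so a misassignment between paralogs would not be seen. *tsr* and the convergent gene *IntS1* share the last 6 bp of their 3′UTRs. If strand was not used in counting, reads at the end of *tsr* could not be assigned with certainty. *IntS1* itself had a mean of 13.6 CPM.

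The libraries held between 8753359 and 13434565 counts on genes, and levels are given per 1000000 of these counts (CPM). The label of head tissue was checked against markers of neurons and photoreceptors, all of which were detected in every library. *nSyb* (synaptic vesicle fusion) had a mean of 1013 CPM and *ninaE* (the main rhodopsin) one of 3662 CPM. Replicate 1 stood apart in markers of midgut and male accessory gland, tissues outside the head. The 5 midgut markers summed to 704 CPM there against 68.5 to 127 CPM elsewhere, and the 4 markers of the male accessory gland to 237 CPM against 4.00 to 40.2 CPM. The 4 ovary and eggshell markers did not follow this, with sums of 3.05, 12.5, 10.4 and 1.69 CPM in replicates 1 to 4. Replicate 3 was the shallowest. Scaling by TMM (trimmed mean of M values) would lower all levels of replicate 1 by 0.18 and raise those of replicate 3 by 0.20 on the log2 scale. Shares and ratios within a library do not depend on this choice. The 8 genes together took 0.321%, 0.282%, 0.141% and 0.284% of all counts in replicates 1 to 4.

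*Act5C*, the main cytoplasmic actin, was abundant and steady across replicates. It had 654, 625, 419 and 750 CPM in replicates 1 to 4, a mean of 612 ± 139 CPM (SD, n = 4), and ranked 288th of all genes by mean level. Replicate 4 was highest and replicate 3 lowest. Its highest level was 1.79 times its lowest, whereas the median of this ratio was 2.12 over the 7754 genes whose count was 10 or more in each library. These genes are of all levels, and the ratio was not compared with that of genes of like level.

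*Act42A*, the other cytoplasmic actin, was the least abundant of the 8 genes. It had 28.7, 21.8, 17.1 and 15.4 CPM in replicates 1 to 4, from 385, 243, 150 and 165 counts, with a mean of 20.8 ± 5.91 CPM (SD, n = 4). The typical gene among the 7754 had 25.4 CPM, so *Act42A* was an ordinary gene in level while *Act5C* was far above. *Act5C* exceeded *Act42A* by 22.8, 28.6, 24.4 and 48.5 times in replicates 1 to 4. The mean log2 ratio was 4.89 ± 0.49 (SD, n = 4; two-sided exact sign-flip permutation test, p = 0.125, the smallest value that 4 libraries allow). Dividing by transcript length left *Act5C* above *Act42A*.

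**Figure D1:**
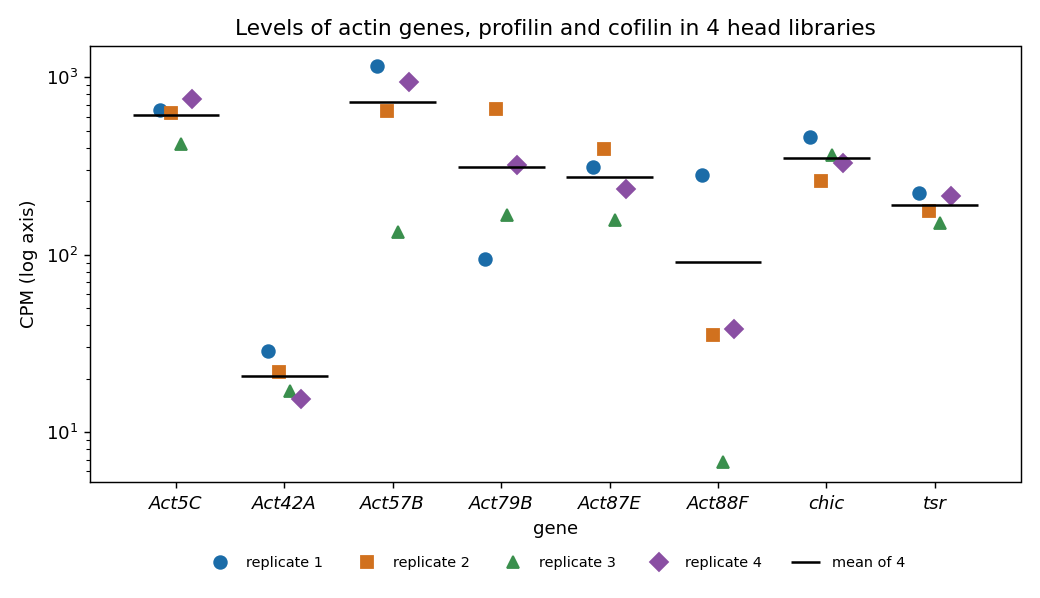
CPM (log axis) of the 8 genes, with 1 symbol for each of the 4 replicates and a bar at the mean. *Act5C*, *chic* and *tsr* cluster tightly, *Act57B* drops to 134 CPM in replicate 3, *Act79B* ranges from 94.8 to 661 CPM, and *Act88F* from 6.74 to 283 CPM.

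The muscle actins were together more abundant than the cytoplasmic ones in every library, by 2.71, 2.68, 1.07 and 2.01 times in replicates 1 to 4, but each had its own pattern across replicates. *Act57B* had the highest mean of the 8 genes. Its levels were 1160.1, 646, 134 and 941 CPM in replicates 1 to 4, with a mean of 720.4 ± 444 CPM (SD, n = 4). Replicate 3 was far below the others, at 0.147 of their mean.

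*Act79B*, the tubular muscle actin, was ordered differently. It had 94.8, 661, 167 and 320.0 CPM in replicates 1 to 4, with a mean of 311 ± 252 CPM (SD, n = 4). Replicate 2 was highest and replicate 1 lowest, although replicate 1 was the highest for *Act57B*. Without replicate 2 the mean was 194 CPM.

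*Act87E* was the steadiest of the muscle actins. It had 310, 392, 156 and 235 CPM in replicates 1 to 4, with a mean of 273 ± 101 CPM (SD, n = 4). Its highest level was 2.51 times its lowest, and 62.4% of the 7754 genes had a smaller ratio.

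*Act88F*, the flight muscle actin, had 283 CPM in replicate 1 and 35.4, 6.74 and 38.3 CPM in replicates 2, 3 and 4, from 3797, 394, 59 and 409 counts. Its 95% Wilson interval ran from 274 to 292 CPM for the first library and from 5.23 to 8.69 CPM for the third. These intervals cover counting error only and take each read as independent. The reads carry no molecular identifiers, so copies of the same molecule cannot be told apart and the intervals may be too narrow. The mean of 90.8 ± 129 CPM (SD, n = 4) rests on replicate 1, and without it the mean was 26.8 CPM. The highest level was 41.9 times the lowest, and 99.7% of the 7754 genes had a smaller ratio.

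The direction of these extremes did not depend on the scaling for the actins: each actin gene had its highest and its lowest level in the same replicate with TMM scaling and with DESeq2 size factors. The ratio of highest to lowest did move, for *Act88F* to 32.1 with TMM scaling and for *Act57B* from 8.63 to 6.60.

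Paralog shares, the part of all actin counts that falls on each gene within a library, show how the composition of actin transcripts changed from one library to the next. Cytoplasmic actins made up 27.0%, 27.2%, 48.4% and 33.3% of actin counts in replicates 1 to 4, a mean of 34.0 ± 10.1% (SD, n = 4). *Act5C* supplied nearly all of this, with 25.9%, 26.3%, 46.5% and 32.6%, and *Act42A* between 0.672% and 1.90%. The muscle actins held the remaining 66.0 ± 10.1% on average, from 51.6% in replicate 3 to 73.0% in replicate 1.

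The leading actin differed between libraries. *Act57B* led in replicates 1 and 4 with 45.8% and 40.9% of actin counts, *Act79B* in replicate 2 with 27.8%, just above *Act57B* at 27.1%, and *Act5C* in replicate 3 with 46.5%. *Act79B* took only 3.75% in replicate 1, against 18.6% in replicate 3 and 13.9% in replicate 4. *Act87E* stayed between 10.2% and 17.4%. *Act88F* took 11.2% in replicate 1 and 1.49%, 0.748% and 1.66% in replicates 2, 3 and 4. Counting error, with each read taken as independent, was small against these differences. Of 36 comparisons of a share between a pair of libraries, the 95% Wilson intervals lay apart in 32. The shares of a library add up to a whole, so these comparisons are not independent. The same count was not made for other genes, so it is not a trait shown to be particular to actins. The total of actin counts behind the shares was 33993, 26498, 7886 and 24567 in replicates 1 to 4.

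**Figure D2:**
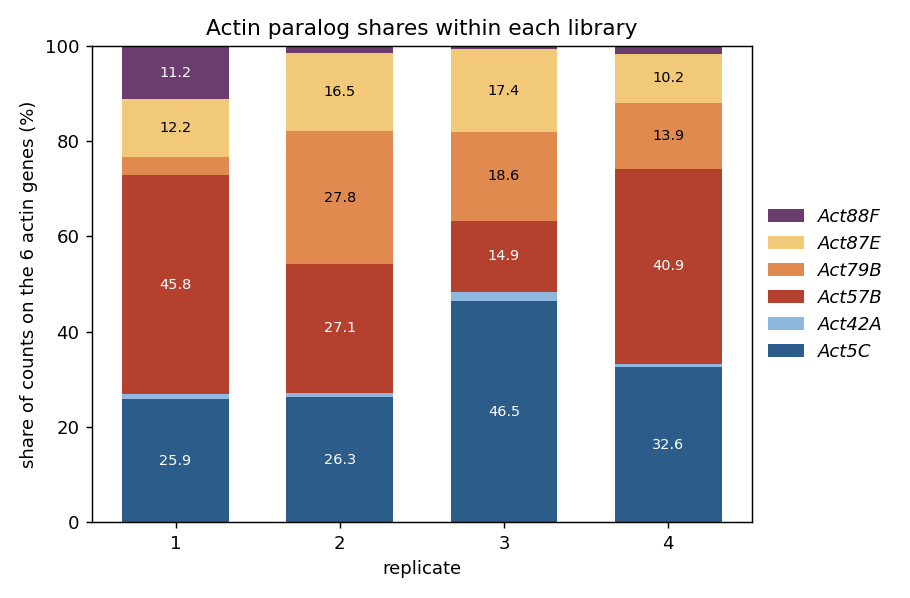
Share (%) of the counts on the 6 actin genes held by each gene, in 1 stacked bar for each of the 4 replicates; shares above 4% are printed. *Act5C* grows to 46.5% in replicate 3, *Act79B* ranges from 3.75% to 27.8%, and *Act88F* is a visible part (11.2%) only in replicate 1.

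Within the 4 muscle actins alone, *Act57B* held 62.8%, 37.2%, 28.9% and 61.3% of counts in replicates 1 to 4, and *Act79B* held 5.13%, 38.1%, 36.0% and 20.9%. The *Act79B* share was within a few percentage points in replicates 2 and 3 (Wilson intervals of 37.4% to 38.8% and 34.6% to 37.5%), although *Act79B* itself had 661 CPM in the former and 167 CPM in the latter. The ratio of *Act57B* to *Act79B* was 12.2, 0.977, 0.802 and 2.94, so it favoured *Act57B* in replicates 1 and 4 only. Of all pairs of muscle actins, *Act79B* and *Act88F* differed most between libraries. Their ratio was 0.336 in replicate 1 and 18.7, 24.8 and 8.36 in replicates 2, 3 and 4.

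Other muscle genes were measured in the same libraries. *Mhc*, the single muscle myosin heavy chain gene, had 976, 820.5, 385 and 706 CPM in replicates 1 to 4. Of the 9 general muscle markers, 8 were lowest in replicate 3, where 43.7% of the 7754 genes also had their lowest level. The exception was *Mlc2*, a myosin light chain gene, which was lowest in replicate 4. These 8 summed to 2733, 2290, 1141 and 1910.4 CPM, and none of the 9 general muscle markers was at 0 in any library. The lower levels of *Act57B*, *Act87E* and *Act79B* in replicate 3 than in replicates 2 and 4 thus stand beside lower levels of other muscle genes. The part of muscle content in them was not tested.

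Dividing by *Mhc* within each library removes a common change in muscle RNA. *Act87E* kept the closest relation to *Mhc*, at 0.318, 0.478, 0.406 and 0.334 counts for each count of *Mhc* in replicates 1 to 4, with an SD of 0.27 on the log2 scale (n = 4). *Act57B* had 1.19, 0.788, 0.349 and 1.33 counts for each count of *Mhc* (SD 0.88 on the log2 scale), so its low value in replicate 3 was not shared in full by *Mhc*. A fall of this size was not particular to *Act57B*. The general muscle marker *wupA* had 171, 48.5, 18.8 and 128 CPM in replicates 1 to 4. Its highest level was 9.09 times its lowest, beside 8.63 for *Act57B*. The next largest ratio among these markers was 3.23, for *Tm2*. *Act79B* had 0.0972, 0.806, 0.435 and 0.454 (SD 1.30 on the log2 scale) and was low in replicate 1. *Act88F* had 0.290, 0.0432, 0.0175 and 0.0543 (SD 1.69 on the log2 scale) and was high in replicate 1. The sum of *Act57B*, *Act79B* and *Act87E* varied less against *Mhc* than *Act57B* or *Act79B* did alone, though more than *Act87E*, with 1.60, 2.07, 1.19 and 2.12 counts for each count of *Mhc* and an SD of 0.39 on the log2 scale.

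**Figure D3:**
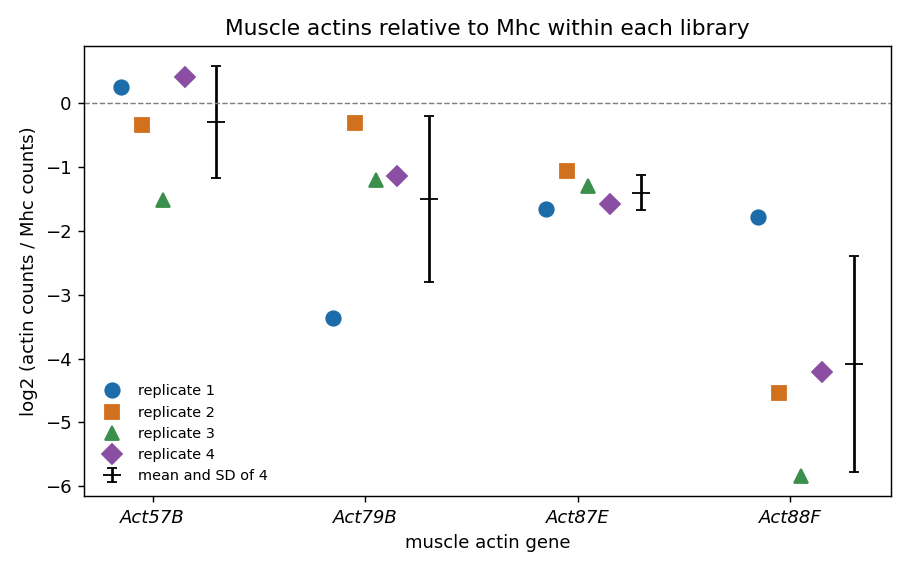
The log2 ratio of the counts of each muscle actin to those of *Mhc* in the same library, with 1 symbol per replicate and the mean and SD (n = 4) at the right of each group. *Act87E* spans a narrow range (SD 0.27), *Act79B* has 1 low point in replicate 1, and *Act88F* 1 high point in replicate 1.

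*Act88F* and both listed markers of the indirect flight muscles were highest in replicate 1. Elsewhere the marker *TpnC4* was lowest in replicate 2 and *Act88F* in replicate 3, and the marker *fln* was at 0 in both of these. *fln* (flightin, a thick filament protein of these muscles) had 175 counts in replicate 1 (13.0 CPM), 0 in replicates 2 and 3, and 18 in replicate 4. A count of 0 allows up to 0.270 CPM in replicate 2 and 0.343 CPM in replicate 3. *TpnC4*, the flight muscle troponin C, had 494 counts in replicate 1 (36.8 CPM) and 2, 19 and 25 counts in replicates 2, 3 and 4. In replicate 1, *Act88F* was 10.5 times the mean of the other replicates, *TpnC4* 23.5 times and *fln* 23.2 times. *Act79B*, the thoracic tubular actin, was at 0.248 of the mean of the others. Markers of midgut and male accessory gland were also highest in replicate 1, as given above. So were all 5 photoreceptor markers, 6 of the 9 general muscle markers and 3 of the 5 neuron markers, but neither of the glia markers. The part of RNA from outside the head in the level of *Act88F* was not tested. In replicate 2, *Act88F* had 394 counts where *fln* was at 0 and *TpnC4* at 2 counts, and in replicate 3 it had 59 counts where *fln* was at 0.

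**Figure D4:**
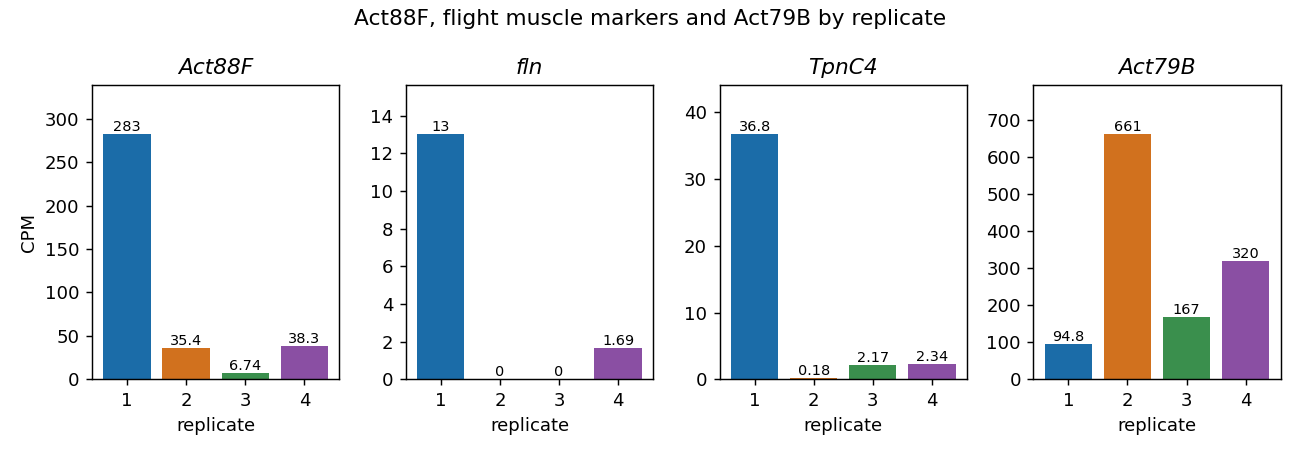
CPM by replicate for *Act88F*, for the flight muscle markers *fln* and *TpnC4*, and for *Act79B*, each panel with its own linear axis from 0. The first 3 genes peak in replicate 1 (283, 13.0 and 36.8 CPM), whereas *Act79B* is lowest there (94.8 CPM).

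*Act88F* had the largest dispersion of the 8 genes, so the genes closest to it in pattern were looked up. Likeness was measured as the Euclidean distance between log2 CPM profiles over the 4 libraries, each centred on its own mean, among 6093 other genes with a mean of at least 10 CPM and counts in every replicate. The closest were *CG13947* (distance 0.92), *CG12374* (1.04) and *CG34212* (1.15), against a median distance of 3.62. *CG13947* had 45.5, 2.43, 0.571 and 4.31 CPM in replicates 1 to 4, and *CG12374* had 84.1, 11.2, 4.80 and 19.8 CPM. *CG34212* had 30.0, 7.01, 2.17 and 6.37 CPM. All of them were highest in replicate 1 and lowest in replicate 3, as *Act88F* was. They were picked for their small distance to it, so shared extremes follow from the choice and add no support. With 4 libraries, such likeness is a description only.

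*chic* (profilin) was among the abundant regulators of actin. It had 459, 261, 362 and 327 CPM in replicates 1 to 4, with a mean of 352 ± 82.8 CPM (SD, n = 4), and ranked 456th of all genes. Replicate 1 was highest and replicate 2 lowest. With TMM scaling the highest was replicate 3, so the order of its replicates depends on the scaling.

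*tsr* (cofilin) was the steadiest of the 8 genes. It had 222, 175, 151 and 215 CPM in replicates 1 to 4, with a mean of 191 ± 33.8 CPM (SD, n = 4). Its highest level was 1.47 times its lowest, and 1.16 times with TMM scaling. Only 15.2% of the 7754 genes had a smaller ratio before TMM scaling, with no comparison made among genes of like level.

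*chic* was counted more often than *tsr* in every library, by 2.07, 1.49, 2.40 and 1.52 times in replicates 1 to 4. The mean log2 ratio was 0.87 ± 0.34 (SD, n = 4; two-sided exact sign-flip permutation test, p = 0.125, the smallest value possible). This comparison is of counts per gene, over all of its 3′ ends, of which 5 are annotated for *chic* and 1 for *tsr*. Per kilobase of the longest annotated transcript, which is 2091 nt for *chic* and 735 nt for *tsr*, the ratio was between 0.523 and 0.844 and *tsr* was above *chic* in all 4 libraries. In 3′-seq the read number does not grow with transcript length, so counts not divided by length are given unless stated.

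Against the sum of all actin counts, *chic* stood at 0.182, 0.110, 0.402 and 0.142 and *tsr* at 0.0879, 0.0736, 0.167 and 0.0936 in replicates 1 to 4. Both ratios were highest in replicate 3, the library with the lowest summed actin (901 CPM against 2300.2 to 2530.3 CPM). Against *Act5C* alone the ratio of *tsr* was much more even, at 0.340, 0.280, 0.360 and 0.287. Its log2 ratio to *Act5C* had an SD of 0.18, the smallest among the ratios computed, and that of *chic* to *Act5C* had an SD of 0.52 (n = 4 each). Neither ratio to *Act5C* was among those planned.

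By mean CPM the 8 genes ran from *Act57B* through *Act5C*, *chic*, *Act79B*, *Act87E*, *tsr* and *Act88F* to *Act42A*. Of the 7 pairs of neighbours in this order, the upper gene was higher in all 4 libraries for 2 pairs, *Act5C* over *chic* and *Act87E* over *tsr*. For each of these pairs the two-sided exact sign-flip permutation test gave p = 0.125, or 0.438 after Benjamini-Hochberg adjustment over the 7 pairs. The order was taken from the same libraries as the test, and 0.125 is the smallest p that 4 libraries allow. The test could therefore set no pair apart, and its values are descriptive only. The other 5 pairs changed order in 1 library each (exact p from 0.25 to 1). Their mean log2 difference was smaller than its SD except for *tsr* over *Act88F*, at 2.23 with an SD of 1.98. For *Act57B* over *Act5C* and for *Act79B* over *Act87E* the mean log2 difference was negative, at -0.11 and -0.10. The mean order is therefore not the order of each library: *Act57B* came first in replicates 1 and 4, *Act79B* in replicate 2, and *Act5C* in replicate 3, where *Act57B* was sixth. *Act88F* was above *tsr* in replicate 1 and last in replicate 3. Over all 28 pairs of the 8 genes, 15 kept their order in all 4 libraries, and 6 of these involve *Act42A*.

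The biological coefficient of variation (BCV), the spread between replicates beyond counting noise, was fitted with edgeR across the 7754 genes and was 0.403 in common.  *tsr*, *Act5C*, *chic*, *Act42A* and *Act87E* had values of 0.302, 0.311, 0.321, 0.350 and 0.364, below the common value. These were above those of 4.19%, 11.0%, 18.6%, 36.9% and 43.8% of the genes. The fit draws each value towards that of genes of like level, while the common value is a single one for all levels. A value below it may therefore be ordinary for an abundant gene, and a comparison with genes of like level was not made. *Act57B*, *Act79B* and *Act88F* had 0.513, 0.562 and 0.801, above those of 90.5%, 95.1% and 99.7% of the genes. These positions depend on the filter: over 11890 genes with any count, the common value was 0.742, and the 3 genes, at 0.501, 0.556 and 0.777, lay above only 48.1%, 52.7% and 62.7% of genes. Each of these last values rests on few libraries. Without replicate 3, *Act57B* fell to 0.299 and lay above only 21.3% of genes. Without replicate 1, *Act79B* was at 0.425 and *Act88F* at 0.494, above 60.2% and 84.4% of genes.

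**Figure D5:**
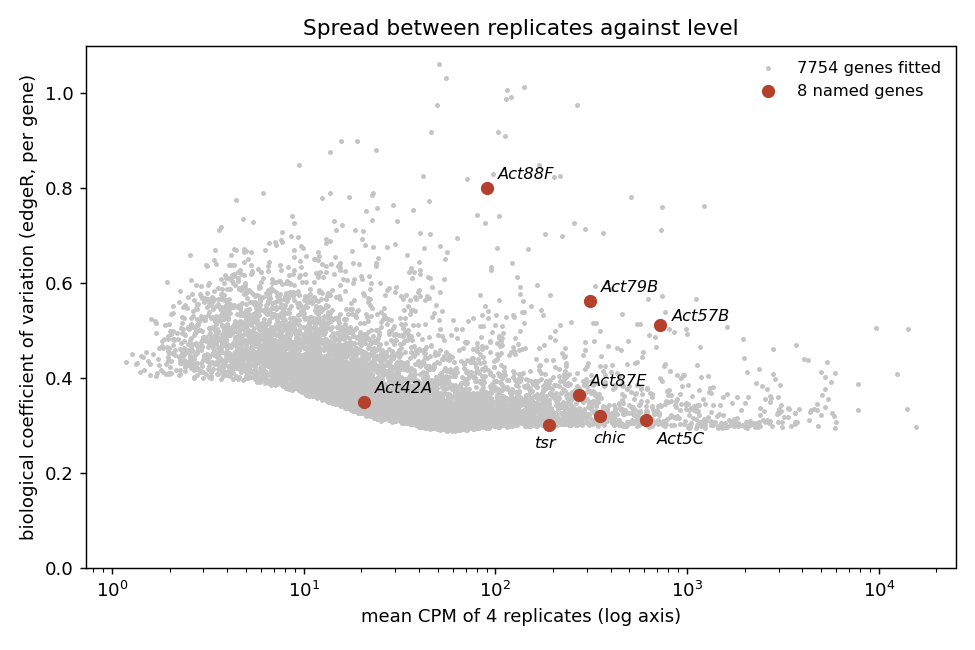
BCV of each gene, as edgeR estimated it from 4 replicates, against mean CPM (log axis) for 7754 genes in grey and the 8 named genes in red. *tsr* (0.302), *Act5C* (0.311) and *chic* (0.321) lie below the common value of 0.403, whereas *Act57B* (0.513), *Act79B* (0.562) and *Act88F* (0.801) lie above it. The common value is a single one for genes of all levels.

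Other genes that control actin filaments were taken from 8 lists with 57 genes, of which 56 were matched to the table; *zip* was not analysed here. At least 10 counts in every replicate were found for 53 of the 56, and for 7754 of the 13608 genes in the whole table. All 56 regulators, including those below this count, had a median level of 22.0 CPM, beside 25.4 CPM for the 7754 genes. *chic* was above 55 and *tsr* above 54 of the 56. The exception for *chic* was *Moe* (moesin, a linker of actin to the membrane) at 989 ± 231 CPM, the only listed gene above *Act5C* and *Act57B*. *tsr* was also below *sqh*, the regulatory light chain of nonmuscle myosin, at 262 ± 32.1 CPM (SD, n = 4 each).

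Among the nucleators, the leading genes of the Arp2/3 complex, which branches filaments, were *Arpc1* at 117 ± 9.27 CPM and *Arpc4* at 115 ± 12.0 CPM. *Arp3* of the same complex had 5.80 ± 5.37 CPM, from only 93, 32, 5 and 137 counts in replicates 1 to 4. Among the activators of this complex, the GTPases *Rac1* and *Cdc42* had 55.0 ± 6.26 and 41.6 ± 12.7 CPM. *ena*, which protects growing ends, led its list at 112 ± 34.9 CPM, followed by the nucleator *spir* at 43.8 ± 15.7 CPM (SD, n = 4 each). All genes of these last lists had at least 10 counts in every replicate.

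The genes that act with cofilin and on monomers were lower than *tsr* itself. *coro* (coronin) had 73.8 ± 37.6 CPM and *capt* (cyclase-associated protein, which recycles monomers) 69.2 ± 33.0 CPM (SD, n = 4 each). The cofilin phosphatase gene *ssh* had 17.3 CPM and the kinase genes *LIMK1* and *cdi*, whose products inactivate cofilin by phosphorylation, had 11.2 and 19.1 CPM on average. The 10 genes of this list summed to 144 CPM in replicate 3, below the range of 282 to 326 CPM of the other libraries. Of the 56 regulators, 32 (57.1%) were lowest in replicate 3, beside 43.7% of the 7754 genes.

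Of the capping and severing genes, *Gel* (gelsolin) led with 102 ± 35.1 CPM, followed by *tmod* (tropomodulin) at 23.4 ± 11.9 CPM. After *Moe*, the cross-linker list was led by *alpha-Spec* (spectrin) at 176 ± 42.0 CPM, and nonmuscle myosin by *sqh* and *Mlc-c* (39.8 ± 20.9 CPM). Of the actin-related genes, *Arp1* of the dynactin complex had 69.8 ± 14.8 CPM and *Arp10* 43.4 ± 6.63 CPM (SD, n = 4 each). No regulator was at 0 in all libraries. *Arp53D*, an actin-related gene known from the male germ line, had 12 counts in replicate 1 and 0 in the others, which allows at most 0.343 CPM in replicate 3.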

How the data were processed

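After fastp had removed poly(A) runs, the 3′-seq reads were aligned by the authors to dm6 with STAR 2.6.1b, introns not allowed. The deposited values are raw featureCounts counts per gene, not normalized. The methods describe removing signal of internal priming, and whether that came before the counting is not given. The annotation, strand setting and treatment of multimapping reads are not given in the sources used here. Identifiers were named from a table of FlyBase identifiers and symbols (13513 of 13608 matched), and coordinates, transcript lengths and overlaps came from Ensembl release 115 on dm6. *Sra-1* was matched through a synonym.

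Counts were divided by library totals (CPM). Shares have 95% Wilson intervals, and 0 counts were read as allowing up to 3. All samples belong to 1 condition, so groups were not compared. Ratios were tested with exact sign-flip tests. Spread was fitted with edgeR 4.0.16 in R 4.3.3 (TMM, intercept only, at least 10 counts in every replicate), a step tested on simulated data. Alternatives were TMM and DESeq2 1.42.0 scaling, other count filters, a pseudocount of 0.5, pooled counts, division by length, and leaving out each replicate. Python 3.11.15 and scipy 1.17.1 did the rest.

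The members, the gene lists and the markers were chosen with earlier results of these data known. Named were all 8 members, the 2 highest genes of each regulator list, any regulator at 0 throughout, and the 3 genes most like the member of largest dispersion. Other genes (*Arp3*, *ssh*, *LIMK1*, *cdi*, *Arp53D*, *IntS1*, the sum of 3 muscle actins against *Mhc*, and the markers shown) were chosen after their values were seen. No sequences are printed.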

Additional observations from a re-analysis of the deposited data

Results flagged for a closer look

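In 20 values (levels, shares and ratios of the 8 genes), a replicate lay far from the other 3 in 2 cases, where the gap to its neighbour divided by the range was above Dixon's 95% critical value for 4 samples. Levels (CPM) and shares (%) were taken untransformed, and ratios as log2. For independent and normally distributed values, chance gives about 1 in 20 such values. Both cases are *Act88F* in replicate 1: its level of 283 CPM (gap over range 0.886) and its share of 11.2% of actin counts (0.912). They use the same *Act88F* counts and are not independent, so their number cannot be judged against chance. Levels and shares were not tested on the log2 scale, so the 2 cases hold for untransformed values only.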

How the results depend on the processing

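Dividing by the length of the longest transcript changed comparisons between genes, though in 3′-seq the read number does not grow with transcript length. The log2 ratio of *chic* to *tsr* turned from 0.87 to -0.64, that of *tsr* to summed actin moved from -3.32 to -1.89, that of muscle to cytoplasmic actin from 0.99 to 1.69, and the share of *Act5C* from 32.8% to 22.9%. Leaving out 1 replicate at a time turned the log2 ratio of *Act57B* to *Mhc* from -0.30 to 0.11 without replicate 3 (range -0.54 to 0.11). It moved by over 1.5 times the mean and share of *Act88F* without replicate 1 (26.8 CPM and 1.30%), the mean of *Act79B* without replicate 2 (194 CPM), and the BCVs of *Act57B* without replicate 3 (0.299) and of *Act88F* without replicate 1 (0.494). Without the count filter the BCVs changed little, but the common value rose from 0.403 to 0.742. TMM and DESeq2 scaling moved no mean level by more than 1 SD. The regulators detected in every replicate numbered 53, 54 with a minimum of 1 count and 53 with a minimum of 1 CPM. The ratios of *Act57B*, *Act79B*, *Act87E* and *Act88F* to *Mhc* and shares within muscle actins were added after seeing the data. Those of *chic* and *tsr* to *Act5C* were also outside the plan. No paired analysis was possible because all libraries belong to a single condition. With 4 libraries no exact test here can give a p below 0.125.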
